A study of Mus musculus with 8 samples.

Results

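The genes described here are 9 complement genes beyond the chains of C1q: the components *C2*, *C4b* and *Cfb*, the regulators *Cfi*, *Serping1*, *Cd55* and *Cd59a*, and the receptors *C3ar1* and *C5ar1*. They were taken by name from the platform annotation, each through a probe set with exactly 1 gene symbol, and are 9 of the 19938 genes that had such a probe set. Each of the 9 had 1 probe set of this kind. The tissue was retina, divided into a superior and an inferior part, of C57BL/6J mice, a strain vulnerable to hyperoxia. All mice were raised in dim cyclic light (12 h at 5 lux and 12 h of darkness). The exposed mice breathed 75% oxygen without a break for 14 days from an age of 83 to 90 days, and the controls were kept in normal air and killed at the same age. The 4 groups are the superior and inferior retina of control and of hyperoxia-exposed mice, with 2 Mouse Gene 1.0 ST arrays each, and every sample held pooled retinas of 1 male and 1 female mouse. All values below are log2 signals or differences of log2 signals. The question addressed was whether these genes respond differently to hyperoxia in the inferior retina, which degenerates, and in the superior retina.

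Complement is a cascade of proteases and binding proteins of innate immunity. The classical route runs from C1q over the products of *C4b* and *C2* to a convertase, the alternative route builds its convertase with factor B, the product of *Cfb*, and both lead to opsonized surfaces, to small peptides called anaphylatoxins that attract phagocytes, and to a pore in the target membrane. Host cells hold the cascade back with soluble inhibitors and with proteins anchored in their own membranes. In the retina, complement genes are transcribed by microglia, by Muller cells and by the pigment epithelium, and the cascade is known for its part in age-related macular degeneration.

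*C4b*, *Serping1* and *C3ar1* rose in the inferior retina after hyperoxia, by 1.33, 1.27 and 0.97 on the log2 scale. *C4b* and *Serping1* also had large values in the superior retina, of 1.15 and 0.86, which did not pass the test, whereas *C3ar1* had 0.02 there. In all, 3 of the 9 genes were higher and 0 were lower in the inferior retina at an adjusted p under 0.05 from limma (Benjamini-Hochberg over all 28853 probe sets), against 0.430% and 0.0624% of all probe sets. At an unadjusted p under 0.05, 5 were higher and 0 lower (4.96% and 4.43% of all). In the superior retina 0 of the 9 passed (0.0173% of all probe sets), 4 were higher and 2 lower at an unadjusted p under 0.05 (3.43% and 2.16% of all), and *C4b* came nearest. Of the 3 calls, 1 was left when control inferior replicate 2 was dropped, and 0 when hyperoxia inferior replicate 2 was. With 2 arrays a group, the number of arrays limits the precision of every value. *C3ar1* is among the genes that the study selected on these same arrays for a regional response, so its values here are not independent evidence. RNA was taken from all the tissue of a region, so a change in the number of cells of a type and a change in RNA per cell cannot be told apart.

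Before these results, the quality of the arrays bears on how they are read. The median log2 signal of an array ran from 6.98 to 7.05. The 7 photoreceptor genes measured had high signal on all arrays, all above 10 on the log2 scale. Transcripts of the lens stood out on control inferior replicate 2, where 13 lens genes had a median 3.32 above their mean over all arrays, against medians from -0.91 to -0.01 on the other arrays. Transcripts of the retinal pigment epithelium, the layer behind the photoreceptors, were lower on control superior replicate 1 than on the others, with a median over 11 genes of -0.90. The study ran its 2 experimental replicates independently. The sources do not say whether the 2 replicates of a group, or the superior and inferior samples, came from separate animals. The p-values thus rest on a spread between samples that may be technical in part or in whole, and on nothing wider.

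**Figure D1:**
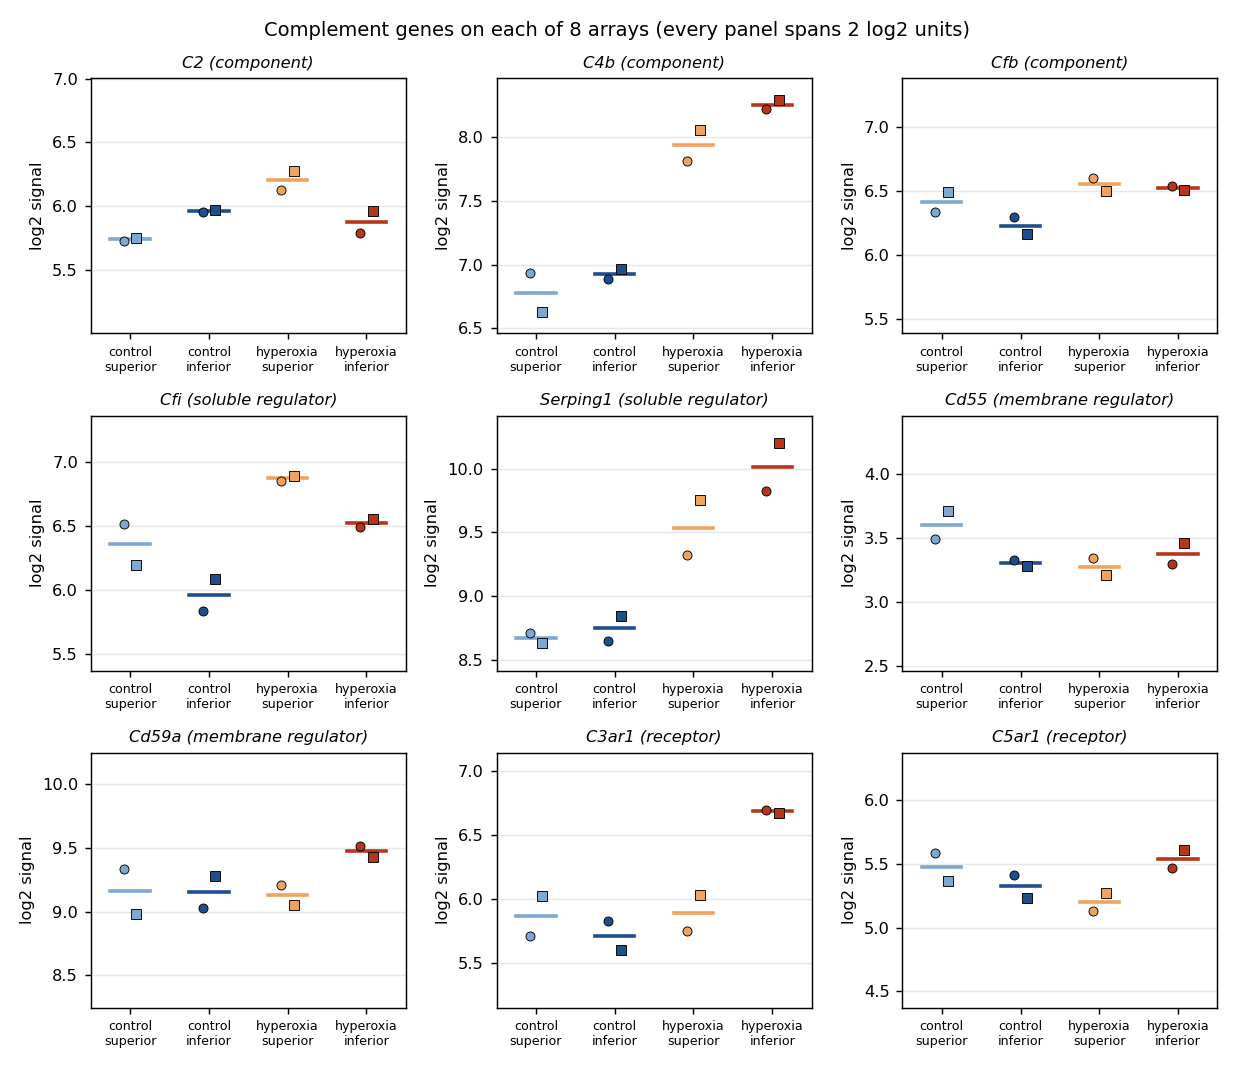
Log2 signal (vertical axes) of the 9 complement genes on each array by group (horizontal axes). Circles are replicate 1, squares are replicate 2 and lines are group means of 2 arrays. *C4b* and *Serping1* are higher in both hyperoxia groups than in both control groups, and *C3ar1* is above the other groups on the 2 hyperoxia inferior arrays only (6.70 and 6.68).

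Among the components, *C4b* encodes the fourth component, which is split by the C1 complex and binds to target surfaces. Its signal was 6.93 and 6.63 on the control superior, 6.89 and 6.97 on the control inferior, 7.81 and 8.06 on the hyperoxia superior and 8.22 and 8.29 on the hyperoxia inferior arrays. Every hyperoxia array lay above every control array, and the hyperoxia inferior arrays lay above the hyperoxia superior arrays. The change was 1.33 in the inferior retina (standard error 0.13, adjusted p = 0.00309 from limma), a fold ratio (FR, hyperoxia over control) of 2.51. The superior value was 1.15 (standard error 0.13, adjusted p = 0.0525), an FR of 2.23. By rank of the p-value it was number 34 of all probe sets in the inferior and number 6 in the superior retina. The inferior call was lost by the methods' t-test (the contrast of the 2-way model with no moderation, adjusted p = 0.202). It was also lost without hyperoxia inferior replicate 2, where the change was 1.29. The superior change of *C4b* passed with quantile normalization (adjusted p = 0.0393), after median centring of each array (0.0337), with dim probe sets left out (0.0155), over 1-symbol probe sets (0.0233) and with a variance trend (0.00731). Its alternatives spanned 0.00731 to 0.73.

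Mice carry a near-identical copy of this gene, *C4a*, and probes of the array can bind transcripts of both, so the split between the copies is uncertain. The *C4a* probe set had a change of 0.71 (adjusted p = 0.217) in the inferior and 0.69 (adjusted p = 0.676) in the superior retina. In the inferior retina its signal was 5.86 and 6.20 in control and 6.60 and 6.88 in exposed mice. In the superior retina it was 6.39 and 5.85 in control and 6.80 and 6.83 in exposed mice. The exposed arrays lay above the controls without overlap in both regions, as in 20.5% (inferior) and 18.7% (superior) of all probe sets.

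*C2* encodes the protease part of the classical convertase. Its signal was 5.73 and 5.75 on the control superior, 5.96 and 5.97 on the control inferior, 6.13 and 6.27 on the hyperoxia superior and 5.79 and 5.96 on the hyperoxia inferior arrays. Its highest values were thus in the hyperoxia-exposed superior retina, which overlapped with no other group, and its lowest in the control superior retina. The change after hyperoxia was 0.46 in the superior (standard error 0.10, unadjusted p = 0.00121, adjusted p = 0.454 from limma) and -0.09 in the inferior retina (adjusted p = 0.819), where the groups overlapped. It was the 1 gene of the 9 with a negative value in the inferior retina.

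*Cfb* lies directly beside *C2* on chromosome 17, with 0 protein-coding genes between them, and 5 protein-coding genes part *Cfb* from *C4b* (gene order of GRCm38.p6). Its signal stayed between 6.16 and 6.61 over the 8 arrays. The change was 0.30 (95% confidence interval from 0.08 to 0.52, adjusted p = 0.353 from limma) in the inferior and 0.14 (from -0.09 to 0.36, adjusted p = 0.921) in the superior retina. The hyperoxia arrays lay above the control arrays in both regions. These 3 neighbours had different values in the superior retina: 1.15 for *C4b*, 0.46 for *C2* and 0.14 for *Cfb*.

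Of the soluble regulators, *Serping1* encodes the C1 inhibitor, which blocks the proteases of the C1 complex and of the lectin route. Its signal was 8.71 and 8.63 on the control superior, 8.65 and 8.85 on the control inferior, 9.32 and 9.75 on the hyperoxia superior and 9.82 and 10.20 on the hyperoxia inferior arrays. As for *C4b*, the order was control, hyperoxia superior, hyperoxia inferior, with no overlap between these steps and with the 2 control groups mixed. It rose by 1.27 in the inferior retina (standard error 0.17, adjusted p = 0.02 from limma), an FR of 2.40. The superior value was 0.86 (standard error 0.17, unadjusted p = 0.000764, adjusted p = 0.445), an FR of 1.82. The inferior call is close to the threshold. It was lost when any 1 of the control arrays was dropped, with an adjusted p of 0.0561 for either superior replicate, 0.0757 for inferior replicate 1 and 0.0519 for inferior replicate 2. It was also lost when hyperoxia inferior replicate 2 was dropped and with pigment epithelium transcripts as a covariate (adjusted p = 0.103 from limma). The arrays of the comparison alone (0.0902) and the methods' t-test (0.333) lost it as well. The change kept a size of 1.08 to 1.36 in these fits.

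*Cfi* encodes factor I, a protease of the blood that inactivates the opsonins left by the cascade. Its signal was 6.52 and 6.19 on the control superior, 5.84 and 6.08 on the control inferior, 6.85 and 6.90 on the hyperoxia superior and 6.49 and 6.56 on the hyperoxia inferior arrays. The superior retina lay above the inferior in both conditions, and the hyperoxia arrays lay above the control arrays of their own region. The changes were of similar size, 0.57 in the inferior (standard error 0.13, unadjusted p = 0.00198, adjusted p = 0.136 from limma) and 0.52 in the superior retina (standard error 0.13, unadjusted p = 0.00329, adjusted p = 0.606). Neither passed the test, and neither passed under any of the 19 alternatives run for each of these changes.

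Of the membrane regulators, neither passed in any comparison. *Cd59a* encodes an anchored protein that stops the assembly of the membrane pore, and its signal ran from 8.98 to 9.51 over the 8 arrays. It was highest on the hyperoxia inferior arrays, at 9.51 and 9.43, with a change of 0.32 in the inferior (95% confidence interval from -0.0016 to 0.64, adjusted p = 0.536 from limma) and -0.03 in the superior retina (from -0.35 to 0.29, adjusted p = 0.991). *Cd55* encodes decay-accelerating factor, which takes convertases apart. Its signal was low on all arrays, between 3.21 and 3.71. The change was 0.08 in the inferior (adjusted p = 0.876) and -0.33 in the superior retina (unadjusted p = 0.0171, adjusted p = 0.796), where both hyperoxia arrays lay below both control arrays. The copies *Cd59b* and *Cd55b* had 5.38 to 5.84 and 2.73 to 3.39, and neither passed the test in any comparison. These copies, *C4a* and *C5ar2* are no members of the set and were named after their values were seen.

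*C3ar1* and *C5ar1* encode the 2 anaphylatoxin receptors of this set, which sit on phagocytes and other cells and signal through G proteins. The signal of *C3ar1* was 5.71 and 6.02 on the control superior, 5.83 and 5.60 on the control inferior, 5.75 and 6.03 on the hyperoxia superior and 6.70 and 6.68 on the hyperoxia inferior arrays. The first 3 groups overlapped, and both hyperoxia inferior arrays lay above all others. The inferior change, a rise of 0.97, had a standard error of 0.14 (adjusted p = 0.0284 from limma) and an FR of 1.96. The superior value was 0.02 (standard error 0.14, adjusted p = 0.993), an FR of 1.02. The inferior call was lost when control inferior replicate 2 or either hyperoxia inferior array was dropped. It was also lost with quantile normalization (adjusted p = 0.063 from limma) and with lens (0.0791) or pigment epithelium transcripts (0.151) as a covariate. The arrays of the comparison alone (0.0809) and the methods' t-test (0.335) lost it as well. The value was between 0.86 and 0.98 in these fits.

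The signal of *C5ar1* was 5.59 and 5.37 on the control superior, 5.42 and 5.23 on the control inferior, 5.13 and 5.27 on the hyperoxia superior and 5.47 and 5.61 on the hyperoxia inferior arrays. Hyperoxia arrays lay above control arrays in the inferior and below them in the superior retina. The changes were 0.21 (95% confidence interval from -0.05 to 0.48, adjusted p = 0.633 from limma) and -0.27 (from -0.54 to -0.01, unadjusted p = 0.0449, adjusted p = 0.884), and neither passed. With pigment epithelium transcripts as a covariate the superior value was -0.00088. That covariate varies largely between the groups (67.6% of its variance), so its part cannot be fully told from theirs. *C5ar2*, a further receptor gene, had 0.32 in the inferior (adjusted p = 0.415) and 0.13 in the superior retina (adjusted p = 0.943).

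The promoters of both receptor genes are shown because these genes had the largest positive regional differences in the change after hyperoxia among the 9, given below with their tests. Each is the sense strand from 250 bases before to 50 bases after the start of the gene in RefSeq (GRCm38.p6), and 4 of the 9 genes matched an entry of that table. The *C3ar1* window is chr6:122856108-122856407 and the *C5ar1* window is chr7:16259289-16259588, both on the minus strand. Capitals mark matches to 4 motifs, searched on both strands in forms of at most 9 letters: an NF-kappaB site (GGNNNTTCC), an interferon-stimulated response element (GAAANNGAA), the STAT palindrome (TTCNNNGAA) and the C/EBP palindrome (TTGCGCAA).
C3ar1: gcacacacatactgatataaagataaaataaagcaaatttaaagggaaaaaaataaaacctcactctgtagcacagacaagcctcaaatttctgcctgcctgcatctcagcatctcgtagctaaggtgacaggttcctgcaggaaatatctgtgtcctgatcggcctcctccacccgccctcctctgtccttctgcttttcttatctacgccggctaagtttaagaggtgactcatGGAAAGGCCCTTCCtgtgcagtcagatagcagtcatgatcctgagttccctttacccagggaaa
C5ar1: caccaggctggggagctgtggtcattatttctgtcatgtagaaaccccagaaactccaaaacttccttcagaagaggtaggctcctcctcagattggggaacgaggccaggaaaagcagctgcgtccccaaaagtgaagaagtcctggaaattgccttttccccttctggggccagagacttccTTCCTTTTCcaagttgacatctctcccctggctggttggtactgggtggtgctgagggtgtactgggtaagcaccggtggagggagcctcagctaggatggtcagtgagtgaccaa
The capitals in the *C3ar1* window are 2 overlapping matches to the NF-kappaB form, 14 to 6 and 9 to 1 bases before the start. Of 32851 promoter windows of this length, 18.5% held this form. The capitals in the *C5ar1* window are 1 match to the interferon-stimulated form, 66 to 58 bases before the start, which 8.56% of all windows held. The STAT and C/EBP palindromes, in 8.30% and 0.183% of all windows, were in neither. Of the other windows, that of *Cd59a* held 1 match to the interferon-stimulated form and that of *Cd55* 1 to the NF-kappaB form. Longer forms had been searched first. With 1 more G before the NF-kappaB form, 5.56% of all windows matched, the *C3ar1* window held 1 match and the *Cd55* window 0. With 1 more A after the interferon-stimulated form, 3.44% matched, and the *C5ar1* window held 0 matches and the *Cd59a* window 1, so the *C5ar1* and *Cd55* matches and 1 of the *C3ar1* matches rest on the shorter forms. These are matches of letters, not sites shown to be bound.

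**Figure D2:**
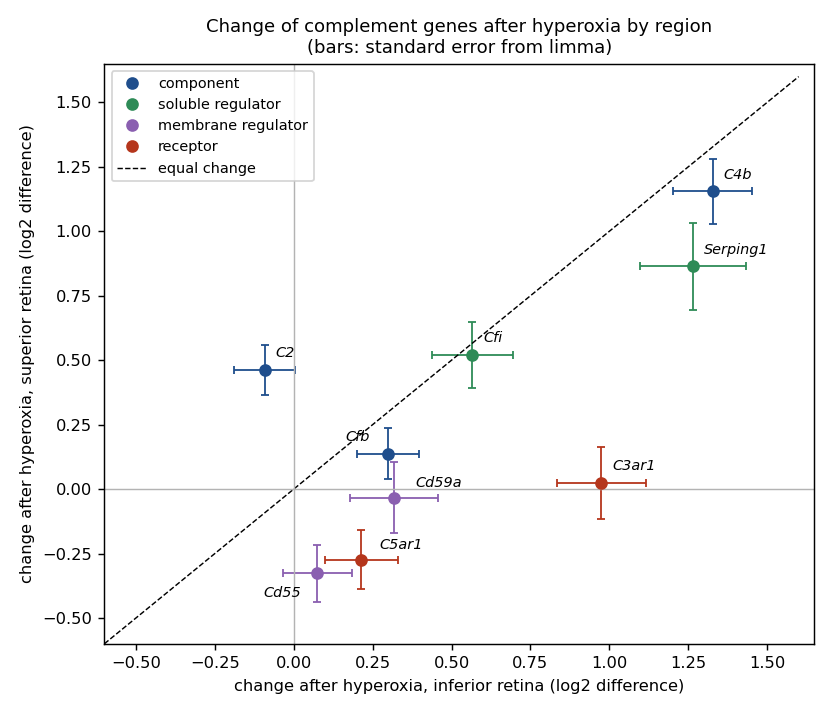
Hyperoxia-related change (log2) of the 9 genes, with the inferior retina on the horizontal and the superior retina on the vertical axis, with standard errors from limma as bars. *Cfi* lies nearest to the line of equal change, followed by *Cfb* and *C4b*, *C3ar1* lies far to the right at 0.97 and 0.02, and *C2* lies to the left of the line at -0.09 and 0.46.

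**Figure D3:**
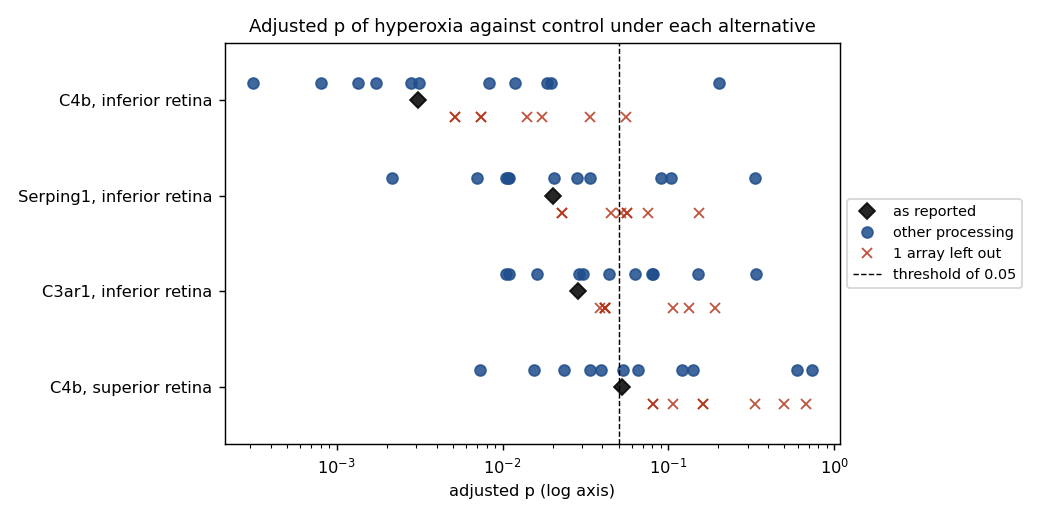
Adjusted p from each alternative (log axis) for the calls of *C4b*, *Serping1* and *C3ar1* in the inferior retina and for *C4b* in the superior retina, with the threshold of 0.05 as a line. *C4b* in the inferior retina runs from 0.000311 to 0.202 and is called in 17 of 19 alternatives, while *Serping1* and *C3ar1* are called in 11 of 19 each.

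Over the 9 genes the median change after hyperoxia was 0.32 for the inferior region and 0.14 for the superior one, against medians over all probe sets of 0.01 and 0.00. In the inferior retina 8 of 9 values were positive (51.6% of all probe sets), and in 7 of 9 genes both hyperoxia arrays lay above both controls, as in 20.5% of all probe sets, while in 0 both lay below (18.1%). For the superior retina 6 of 9 were positive (50.6% of all). There 5 genes lay above the controls without overlap (18.7% of all) and 2 lay below, *Cd55* and *C5ar1* (17.2% of all).

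Within the hyperoxia-exposed retina, *C3ar1* had the largest of the 9 differences between the regions, 0.80 higher in the inferior retina (standard error 0.14, unadjusted p = 0.000392, adjusted p = 0.143 from limma). In this comparison 0 of the 9 genes passed by limma, where 0.125% of all probe sets were higher and 0.0139% lower. By the methods' t-test (no moderation, its p also adjusted over all probe sets) 0 of the 9 passed as well. At an unadjusted p under 0.05, 5 of the 9 had higher and 2 had lower signal in the inferior region, each against 4.25% of all probe sets. The 5 were *Serping1* (0.48), *C5ar1* (0.34), *Cd59a* (0.34), *C4b* (0.32) and *C3ar1*. Without overlap between the regions, 5 of the 9 were higher (20.0% of all probe sets) and 2 lower (18.5%). The 2 lower ones were *Cfi* (-0.35, adjusted p = 0.54) and *C2* (-0.33, adjusted p = 0.423). *Cfb* had -0.02 and *Cd55* 0.10.

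In the control retina 0 of the 9 genes passed between the regions by limma (0% of all probe sets). By the methods' t-test (the unmoderated contrast over all 8 arrays, adjusted over all probe sets) 0 passed as well. For this comparison the study itself used 2-sample t-tests, with no adjustment described, and a limit on the fold difference. At an unadjusted p under 0.05, 1 gene was higher in the inferior retina (2.49% of all probe sets) and 2 were lower (2.81%). *Cfi* had -0.40 (standard error 0.13, unadjusted p = 0.014, adjusted p = 0.901), *Cd55* -0.30 (adjusted p = 0.92) and *C2* 0.23 (adjusted p = 0.93). The *Cfi* value was thus negative in both conditions, at -0.40 and -0.35, with no overlap between the regions in either. In the control retina 1 gene was higher in the inferior region without overlap (17.5% of all probe sets) and 3 were lower (16.7%). *C2* turned from 0.23 in the control to -0.33 in the hyperoxia-exposed retina. For *C3ar1* the control value was -0.15 (95% confidence interval from -0.48 to 0.17), for *C4b* 0.15 (from -0.14 to 0.43) and for *Serping1* 0.08 (from -0.31 to 0.46).

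**Figure D4:**
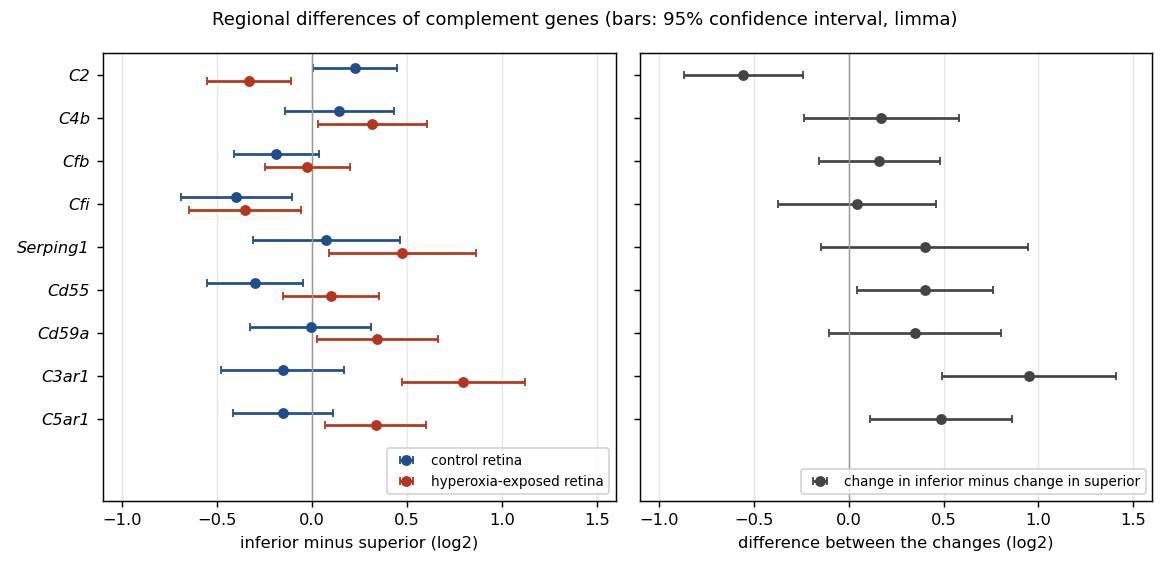
Left, log2 difference between the inferior and the superior retina (horizontal axis) for each gene (vertical axis) in control and in hyperoxia-exposed mice. Right, the change after hyperoxia in the inferior minus that in the superior retina. Bars are 95% confidence intervals from limma, not adjusted for the number of genes. The *C3ar1* interval on the right runs from 0.49 to 1.41 and that of *C2* from -0.87 to -0.24.

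The difference between the regions in the change after hyperoxia is the interaction of the 2-way design. At an adjusted p under 0.05 it passed for 0 of the 9 genes (limma, 0.00347% of all probe sets, and the methods' t-test alike). The study used another rule, a p under 0.05 with no adjustment described together with a minimum size of the fold margin, a measure defined below. By that rule it listed *C3ar1*. At an unadjusted p under 0.05, 3 of the 9 were positive and 1 negative, against 3.02% and 3.03% of all probe sets. *C3ar1* had 0.95 (standard error 0.20, unadjusted p = 0.00122, adjusted p = 0.52), *C2* -0.55 (unadjusted p = 0.00329, adjusted p = 0.622), *C5ar1* 0.49 (unadjusted p = 0.0168, adjusted p = 0.783) and *Cd55* 0.40 (unadjusted p = 0.0315, adjusted p = 0.802). For *C4b* it was 0.17, with a 95% confidence interval from -0.23 to 0.58. For *Serping1* it was 0.40 (from -0.15 to 0.95, unadjusted p = 0.13 from limma) and for *Cfi* 0.05 (from -0.37 to 0.46). These intervals hold 0 and do not show that the changes were equal. As fold margins (FM, the FR in the inferior minus that in the superior retina), the values were 0.95 for *C3ar1*, 0.58 for *Serping1*, 0.28 for *C4b* and -0.44 for *C2*. The other 5 genes had FM values from 0.05 to 0.33. The 2 changes after hyperoxia use separate control arrays, while the regional comparisons and the interaction use the same 8 arrays again.

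Of 39 other complement genes, 5 rose in the inferior retina and 0 fell (adjusted p under 0.05 from limma, 0.430% and 0.0624% of all probe sets). They were the C1q chain genes *C1qc* (2.07), *C1qb* (2.07) and *C1qa* (1.88), which encode the first recognition protein of the classical route, and *Itgam* (0.94, adjusted p = 0.0366) and *Itgb2* (0.90, adjusted p = 0.0183), the chains of a phagocyte receptor for opsonized particles. The median of the 39 was 0.04, against 0.32 for the 9 genes above. Most of the 39 had a mean log2 signal under 6, against 3 of the 9. The lists were not matched for signal, so the 2 medians are not a like comparison. The 5 became 3 with the arrays of the comparison alone, on dropping either control superior array or either hyperoxia inferior array, or with the pigment epithelium covariate, and 0 by the methods' t-test. The C1q chain genes are also among those the study selected on these arrays and so give no independent evidence. For the superior retina, 0 of the 39 passed by limma or by the methods' t-test, and *C1qc* had 0.95 (adjusted p = 0.129 from limma). At an unadjusted p under 0.05 there, 8 were higher and 2 lower (3.43% and 2.16% of all probe sets). Within the hyperoxia-exposed retina the C1q chain genes were higher in the inferior region, by 1.26 to 1.44. They were the 3 of the 39 that passed (0.125% of all probe sets were higher). These 3 became 1 on dropping hyperoxia inferior replicate 1, and 0 on dropping replicate 2 of either exposed group or by the methods' t-test.

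The lists of cell type markers differed in how far they moved with the groups. Of 14 genes of microglia and macrophages, 9 rose in the inferior retina (0.430% of all probe sets) and 0 fell, with a median of 1.05. In the superior retina 1, *Ly86*, rose (0.0139% of all), and the median was 0.33. The summed linear signal of the list was 1191 to 1236 on the control superior, 1297 on both control inferior, 1626 to 1631 on the hyperoxia superior and 2966 to 3150 on the hyperoxia inferior arrays. Differences between the groups made up 99.8% of the variance of the list's median over the arrays, so these markers and the groups cannot be told apart. *Itgam* is in both this list and that of other complement genes. *Cd68*, *Csf1r*, *Fcrls*, *Laptm5*, *Ly86*, *Mpeg1* and *Tyrobp* are also among the genes that the study selected on these arrays for a regional response. The counts and medians of this list are therefore not independent evidence. Among the defining genes, named after their values were seen, *Aif1* lay between 5.57 and 6.41 and *Csf1r* between 7.08 and 8.58. Markers of resident microglia differed among themselves in the inferior retina: *Fcrls* rose by 1.35 (adjusted p = 0.00557 from limma), while *Cx3cr1* had 0.66 (adjusted p = 0.108), *P2ry12* 0.19 (adjusted p = 0.689) and *Tmem119* 0.14 (adjusted p = 0.776). The part of these cells in the changes of *C3ar1*, *C4b* and *Serping1* was not tested.

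**Figure D5:**
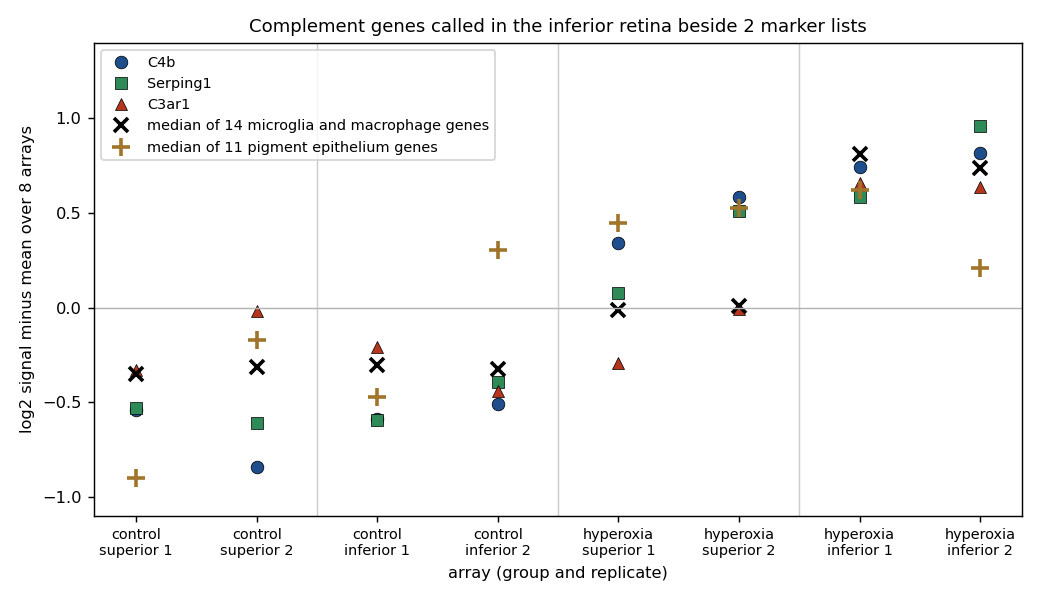
Log2 signal minus each gene's mean over the 8 arrays (vertical axis) on each array (horizontal axis) for *C4b*, *Serping1* and *C3ar1*, with the medians of 14 microglia and macrophage genes and of 11 pigment epithelium genes. On the hyperoxia superior arrays *C4b* lies above its mean, while the microglia list is at -0.01 and 0.01 and *C3ar1* lies at or below its mean. The microglia list is at -0.35 and -0.32 on the control superior arrays, so it too is higher after hyperoxia in that region.

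Of the 7 photoreceptor genes, 0 passed after hyperoxia in either region by limma. In the inferior retina 6 of the 7 values were negative, with a median of -0.15, and 2 were lower at an unadjusted p under 0.05 (4.43% of all probe sets). These were *Nrl*, a transcription factor of rods (-0.41, unadjusted p = 0.00184, adjusted p = 0.136), and *Cnga1*, a channel subunit of rods (-0.31, unadjusted p = 0.0432, adjusted p = 0.507), both without overlap and named after their values were seen. In the superior retina the median was -0.01 and 0 had an unadjusted p under 0.05. Between the regions of the exposed retina 0 passed, with a median of -0.23. At an unadjusted p under 0.05, 3 were lower in the inferior region (4.25% of all probe sets). The summed signal of the list was 54279 to 61111 on the hyperoxia inferior arrays and 60876 to 64064 on the others, and its part in the results was not tested.

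Of 11 genes of the pigment epithelium, 0 passed in either region by limma. At an unadjusted p under 0.05, 9 were higher in the superior retina (3.43% of all probe sets), where the list had a median of 1.14. In the inferior retina 2 were higher (4.96% of all probe sets), with a list median of 0.31. Their summed signal was 2707 to 6109 on the control superior, 4494 to 8310 on the control inferior, 9091 to 9435 on the hyperoxia superior and 8051 to 9849 on the hyperoxia inferior arrays. With this list's median on each array as a covariate, *C4b* had 1.28 in the superior retina (adjusted p = 0.73) and 1.39 in the inferior retina (adjusted p = 0.0186). Differences between the groups made up 67.6% of the variance of this median over the arrays. No fit with this covariate can therefore fully tell its part from that of the groups. Of 12 genes of neutrophils and other blood leukocytes, 0 passed by limma. At an unadjusted p under 0.05, 1 was lower in the inferior retina (4.43% of all probe sets). In the superior retina 1 was higher (3.43%) and 1 lower (2.16%). The summed signal of this list was 423 to 485 over all arrays. Of 5 genes of plasma proteins, 0 passed by limma and 0 had an unadjusted p under 0.05 after hyperoxia in either region. Of 10 genes of Muller cells and astrocytes, *Gfap* rose by 2.42 (inferior retina) and 1.25 (superior retina), *Glul* fell by 0.70 in the inferior retina, and no other passed there. Of 9 endothelial, 8 choroid and sclera, 13 lens and 2 erythrocyte genes, 0 passed after hyperoxia in either region by limma. At an unadjusted p under 0.05, 1 endothelial gene was higher in the inferior retina (4.96% of all probe sets). There 1 endothelial and 1 choroid and sclera gene were lower (4.43%). In the superior retina 1 choroid and sclera gene was higher (3.43%). For lens and erythrocytes 0 genes had such a p in either region.

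The genes nearest to each called gene were found by the root mean square difference of log2 signals over the 8 arrays, after centring each gene on its mean, among 19929 other genes. *C4b* lay nearest to *Osmr*, the oncostatin M receptor, at 0.13, then *Chil1* (0.22) and *Pdpn* (0.22), a membrane glycoprotein. *Serping1* lay nearest to *Pdpn* (0.13), then *Ifitm3* (0.16) and *Irf9* (0.17), which both belong to the interferon response. *C3ar1* lay nearest to *Sec22c* (0.11), *Chl1* (0.12) and *Rbm17* (0.12). Among the 9 genes, *C4b* and *Serping1* were each other's nearest, at 0.15, and the nearest to *C3ar1* was *Cd59a*, at 0.34.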

How the data were processed

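Mouse Gene 1.0 ST arrays measured RNA of 8 samples. The deposited log2 values come from Partek Genomics Suite, where the authors applied RMA background correction and median polish to core probes. Tool versions and any quantile normalization are not stated in the sources used here. The values were used as deposited. A model with 1 mean per group was fitted to all 28853 probe sets with limma 3.58.1 in R 4.3.3 (4 residual degrees of freedom), 5 contrasts were tested, with Benjamini-Hochberg adjustment across the whole array (threshold 0.05). The fit was tested on simulated data. Of the probe sets, 21789 carried 1 gene symbol, 1621 several and 5443 none. For a gene the 1-symbol probe set with the highest mean was used, and all 9 genes were matched by gene ID. Named were the 9 genes, other complement genes past the threshold and, for each called gene, the 3 genes most like it. Gene copies, a further receptor and single marker genes were named in addition, after their values were seen. The genes and lists were chosen with earlier results of these data known. Alternatives changed the normalization, filter, probe sets, arrays, test and variance prior. Covariates for lens and pigment epithelium transcripts were added after seeing the data.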

Additional observations from a re-analysis of the deposited data

Results flagged for a closer look

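*C5ar1* had values of opposite sign in the 2 regions, 0.21 and -0.27, neither of which passed (adjusted p = 0.633 and 0.884 from limma). Both hyperoxia arrays lay above both control arrays in the inferior retina and below them in the superior retina. The difference between the regions in the change was 0.49 on the log2 scale (standard error 0.16, unadjusted p = 0.0168, adjusted p = 0.783 from limma), which did not pass the test. With pigment epithelium transcripts as a covariate the superior value was -0.00088 and the difference 0.35. The covariate is partly confounded with the groups, which made up 67.6% of its variance, and its part was not tested. Its mean log2 signal was 5.39.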

How the results depend on the processing

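The 3 calls in the inferior retina became 1 with the arrays of the comparison alone, 0 by the methods' t-test and 1 with the pigment epithelium covariate, and ranged from 0 to 3 when single arrays were left out. In the superior retina 0 calls became 1, *C4b*, with quantile normalization, with arrays centred on their medians, with dim probe sets left out, with 1-symbol probe sets only and with a variance trend, and stayed at 0 when single arrays were left out. The other 3 comparisons had 0 calls under every alternative run. The replicate numbers were not shown to pair the samples (correlations of same-numbered deviations from -0.02 to 0.14). A replicate block left 3 calls in the inferior retina and changed no other call among the 9 genes, and over all probe sets it gave 127 calls in the inferior retina against 142. Over all probe sets the inferior count ran from 35 to 168 when single arrays were left out and from 2 to 374 otherwise. The superior count, 5, ran from 0 to 3 and from 0 to 21. The exposed regional count, 40, ran from 0 to 69 and from 0 to 84. The control regional count, 0, ran from 0 to 53 and from 0 to 1, and the interaction count, 1, from 1 to 30 and from 0 to 3. Of 831 alternative values for the 9 genes, 792 kept direction and side of the threshold, 18 lost a call, 5 gained one and 16 changed sign, none of the last called. When single arrays were left out, signs changed for *Cd55* in the inferior retina (-0.0081 to 0.16), for *Cd59a* (-0.21 to 0.15) and *C3ar1* (-0.13 to 0.18) in the superior retina, in the control regional comparison for *C4b* (-0.0040 to 0.30), *Serping1* (-0.022 to 0.18), *Cd59a* (-0.18 to 0.17) and *C3ar1* (-0.31 to 0.0024), in the exposed regional comparison for *Cfb* (-0.078 to 0.030), and in the interaction for *Cfi* (-0.12 to 0.21). With the pigment epithelium covariate *C3ar1* in the superior retina had -0.036 and *Cd59a* in the control regional comparison 0.0086, and with the lens covariate *Serping1* in the control regional comparison had -0.0079. The cause was not tested. Leaving out dim probe sets could give no values for *C2*, *Cd55* and *C5ar1*, the 3 genes with a mean log2 signal under 6, and the arrays of 1 comparison alone could not give the interaction.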
